A study of Mus musculus with 4 samples.

Results

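The cytosolic ribosomal protein genes encode the proteins of the large and small subunits of the ribosome that translates nuclear mRNAs. They were taken by symbol, as every row whose symbol begins with Rpl or Rps followed by a digit and the rows Rplp0, Rplp1, Rplp2 and Rpsa. Symbols that contain -ps, S6 kinase genes and Rps19bp1 were left out. The rule found 88 of 19354 genes, of which 52 belong to the large and 36 to the small subunit. The annotation lists 83 of them as protein coding and 5 as pseudogenes, namely Rps4l, Rpl37rt, Rps3a2, Rps3a3 and Rpl6l.

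RNA-Seq was performed on hematopoietic stem cells (HSCs), the rare marrow cells that maintain all blood lineages, sorted as LSK FLT3- CD48- CD150+ cells. Id2+/+ HSCs were pooled from 14 Mx1-Cre Id2+/+ mice and Id2Δ/Δ HSCs from 15 Mx1-Cre Id2fl/fl mice, all 8 to 16 weeks old and taken 2 weeks after pIpC. Mx1-Cre is an interferon-inducible recombinase that pIpC switches on in marrow and in other tissues, so both genotypes carried Cre and received the same inducer. Each genotype gave 2 libraries over 2 experiments, and the labels do not say which experiment or which mice a library came from, so p-values measure only the spread between these libraries. The values are log2 CPM, counts scaled to a common library total, which the authors also normalized by quantiles, and depth recovered from the low values was 14200000 and 15700000 reads in Id2+/+ replicates 1 and 2 and 17800000 and 18800000 reads in Id2Δ/Δ replicates 1 and 2. Id2 was detected with 93 and 98 reads in the Id2+/+ libraries and with 0 reads in both Id2Δ/Δ libraries. The summed level of 8 HSC markers was 4361 and 4263 CPM in Id2+/+ and 2907 and 3488 CPM in Id2Δ/Δ replicates 1 and 2, with no marker at 0. In bulk samples, fewer cells of a type and less RNA per cell cannot be told apart.

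Ribosomal proteins assemble with ribosomal RNA in the nucleolus in near equal numbers, and each subunit needs almost all of its proteins to mature. Their mRNAs carry a 5′ terminal oligopyrimidine (TOP) tract, a C at the first base followed by a run of C and T, through which LARP1 and the mTOR kinase control their translation. HSCs are known for a low rate of protein synthesis, and inherited shortage of single ribosomal proteins causes Diamond-Blackfan anaemia, a failure of red cell production. ID2 has a helix-loop-helix domain without a DNA-binding region and is best known for holding E proteins off their CANNTG motif, the E-box.

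The TOP tract is the sequence feature that the group is known for, so 7 start sites are shown. Each run spans the 10 bases before and the 20 bases from the start annotated by RefSeq on GRCm38.p6, 5′ to 3′ on the gene's strand, and the capitals mark the first C with the pyrimidines that follow it. Rpl15 carried the longest tract of those at the annotated start, Rps6 and Rps18 had long tracts, and Rpl22l1 had its tract 3 bases further in. Rps27 and its retrogene Rps27rt share a run of 19 bases across the tract. Whether reads of these genes can be fully told apart was not tested.
Rpl22l1, chr3:28805498-28805527, plus strand: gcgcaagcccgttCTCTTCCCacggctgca
Rps18, chr17:33955646-33955675, minus strand: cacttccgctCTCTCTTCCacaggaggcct
Rps6, chr4:86857348-86857377, minus strand: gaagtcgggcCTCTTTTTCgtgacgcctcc
Rpl15, chr14:18270967-18270996, minus strand: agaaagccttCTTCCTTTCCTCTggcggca
Rplp2, chr7:141447641-141447670, plus strand: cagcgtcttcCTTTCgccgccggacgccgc
Rps27, chr3:90213629-90213658, minus strand: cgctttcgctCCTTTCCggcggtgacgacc
Rps27rt, chr9:114982720-114982749, minus strand: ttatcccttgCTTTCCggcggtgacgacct

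Of the 88 genes, 64 matched a RefSeq start region, which covers 250 bases before and 50 bases after the start. A C at the annotated start followed by at least 4 pyrimidines was present in 14 of the 64, or 21.9%, against 3.01% of all 27025 genes with such a region. Allowing 10 bases to either side of the annotated start, the tract was found in 38, or 59.4%, against 34.4% of all genes. CTTCCGG, searched on both strands, was held by 25 of the 64, or 39.1%, against 9.93% of all genes and 19.7% of tested genes with a region. The E-box CANNTG, which reads the same on both strands, was held by 33 of the 64, or 51.6%, against 75.0% of all and 67.9% of tested genes. CACGTG, which is itself a CANNTG match and is bound by MYC, was held by 6 of the 64, or 9.38%, against 8.09% of all and 11.7% of tested genes. The median log2 difference between Id2Δ/Δ and Id2+/+ HSCs was 0.20 over the 14 genes with a tract at the annotated start and 0.18 over the 49 tested genes without one. With the tract allowed within 10 bases of that start, it was 0.21 over 37 tested genes with and 0.14 over 26 without. It was 0.18 over the 32 tested genes with and 0.19 over the 31 without a CANNTG match.

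Ribosomal protein mRNAs were abundant in all 4 libraries. They made up 4.60% and 4.59% of all CPM in Id2+/+ replicates 1 and 2, 5.54% in Id2Δ/Δ replicate 1 and 4.48% in Id2Δ/Δ replicate 2. The Id2Δ/Δ libraries thus lay on either side of both Id2+/+ libraries. Large-subunit genes took 2.53% and 2.52% in Id2+/+ and 3.02% and 2.46% in Id2Δ/Δ, and small-subunit genes took 2.07% and 2.08% in Id2+/+ and 2.52% and 2.02% in Id2Δ/Δ. The ratio of the large-subunit to the small-subunit share was 1.22 and 1.21 in Id2+/+ and 1.20 and 1.22 in Id2Δ/Δ, so both subunits were high together in Id2Δ/Δ replicate 1. With 2 libraries against 2, an exact two-sided permutation test cannot give a p below 0.333, and none was run on these shares.

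Relative levels within the group were similar between the libraries of a genotype. A correlation across genes does not register a shift that all members share. Across the 77 protein-coding members with a mean log2 CPM of at least 7, Pearson's r between libraries was 0.996 for the Id2+/+ pair and 0.986 for the Id2Δ/Δ pair, given as a description, since the points share their genes and libraries. Per kilobase of principal transcript, the highest mean levels were those of Rps27 and Rps18, at 11.03 and 11.00 log2 CPM per kilobase, which differ by less than the spread between libraries, followed by Rps14 and Rpl3 at 10.68 each and Rps19 at 10.55. Per kilobase of coding sequence, Rpl41, which encodes the shortest ribosomal protein, came first at 12.93. The order at the top therefore depends on the length used.

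The lowest members were mostly gene copies. Rpl3l, the striated-muscle paralog of Rpl3, had 1 and 5 reads in Id2+/+ and 6 and 11 reads in Id2Δ/Δ replicates 1 and 2, and it was the member under the limit of a mean of 1 CPM that testing required. Rpl6l had 37, 36, 52 and 60 reads and Rps3a2 had 66, 78, 102 and 152 reads in the same order, the highest in Id2Δ/Δ replicate 2 for both. Rpl24, a large-subunit protein that helps join the subunits, was at 2.49, 2.55, 2.41 and 2.84 log2 CPM, lowest in Id2Δ/Δ replicate 1. Its recovered reads, which are not scaled for depth, were 81, 93, 95 and 128. This was far below most other protein-coding members, and so was Rpl13a at 5.05, 5.01, 5.23 and 5.28 log2 CPM. How the authors assigned reads that fit several copies is not given in the sources used here, so the levels of genes with near-identical copies are uncertain. The table also holds 143 ribosomal protein pseudogene rows, and in the 52 members that have such a row the pseudogenes together reached a median of 1.38% and at most 9.20% (Rpl9) of the CPM of the parent gene.

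The main comparison asks how Id2 deletion changes the HSC transcriptome, and no ribosomal protein gene passed its test. In limma, with Benjamini-Hochberg adjustment over 15895 genes, 0 of 87 tested members were called at an adjusted p under 0.05, beside 0% of all tested genes. Adjusted p-values of the members ran from 0.910 to 0.992. At an unadjusted p under 0.05, 1 member, Rpl22l1, passed, against 1.72% of all tested genes on the higher side, and 742 tested genes passed in either direction. By the mean of both libraries, 84 of the 87 were higher in Id2Δ/Δ HSCs, against 51.7% of all tested genes, and 3, namely Rpl3, Rps18 and Rplp0, were lower. The log2 differences ran from -0.05 to 0.56 with a median of 0.18, against 0.01 over all tested genes, and their standard errors ran from 0.09 to 0.46 with a median of 0.14. Both Id2Δ/Δ libraries lay above both Id2+/+ libraries in 32 members, against 19.0% of all tested genes, and below both in 0, against 15.8%, while the genotypes overlapped in 55.

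A single library carried most of this difference. Id2Δ/Δ replicate 1 was the highest of the 4 libraries in 81 of the 87 members, against 33.0% of all tested genes, and was above both Id2+/+ libraries in 84, against 40.1%. Id2Δ/Δ replicate 2 was above both Id2+/+ libraries in 34 members, against 37.5% of all tested genes, below both in 22, against 32.9%, and between them or level with either in 31. The median difference from the Id2+/+ mean was 0.31 in Id2Δ/Δ replicate 1 and 0.01 in Id2Δ/Δ replicate 2. The Id2+/+ libraries differed from each other by a median of 0.07 in absolute value over the members, with a maximum of 0.39 (Rps4l), whereas Id2Δ/Δ replicate 1 exceeded replicate 2 in 82 of 87 by a median of 0.34. Over all tested genes the median absolute difference was 0.29 between the Id2Δ/Δ libraries and 0.19 between the Id2+/+ libraries, and over the members it was 0.34 and 0.07. The signed median over all tested genes, 0.01 between the Id2Δ/Δ libraries, is held near 0 by the quantile normalization. The 6 members that did not peak in Id2Δ/Δ replicate 1 were Rpl24, Rpl6l, Rpl7l1, Rpl13a and Rps3a2, which were highest in Id2Δ/Δ replicate 2, and Rps18, where replicate 1 of both genotypes had the same value of 10.21. These 6 were picked out after their values were seen.

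**Figure D1:**
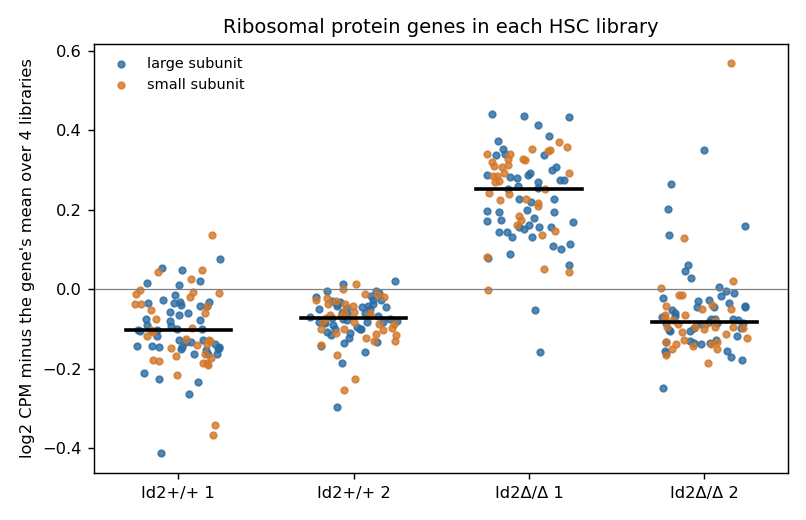
Each point is 1 of the 87 tested ribosomal protein genes, plotted per library as log2 CPM minus the mean of that gene over the 4 libraries (y axis), colored by subunit, with horizontal spread added for legibility and black bars at the medians. The medians are -0.10 and -0.07 in Id2+/+ replicates 1 and 2, 0.25 in Id2Δ/Δ replicate 1 and -0.08 in Id2Δ/Δ replicate 2.

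Leaving out libraries changed the count accordingly. Without Id2Δ/Δ replicate 1, 47 of 87 members were higher, against 53.3% of all tested genes, and the median was 0.01. Without Id2Δ/Δ replicate 2, the median was 0.31 and 65 members had an unadjusted p under 0.05, against 15.8% of all tested genes, yet 0 genes were called after adjustment by limma, where the lone Id2Δ/Δ library is assumed to vary like the Id2+/+ pair. The genotype difference of the group therefore cannot be told apart from the difference between the Id2Δ/Δ libraries.

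Some other measures were also highest in Id2Δ/Δ replicate 1, and others were not. The median transcript of the tested members measures 871 bases, against 2634 over all tested genes, and 57 of the tested members are under 1 kb. The 2151 tested genes under 1 kb outside the group had a median difference from the Id2+/+ mean of 0.16 in Id2Δ/Δ replicate 1 and 0.10 in replicate 2, and 64.2% of them were higher in Id2Δ/Δ HSCs. After each library was corrected for transcript length, 72 of 87 members were higher, against 55.7% of genes, with a median of 0.10 against 0.03, and the median deviation of the members from the gene means was 0.19 in Id2Δ/Δ replicate 1 and -0.09 in replicate 2. Among markers of other blood cells, 4 macrophage genes of a list of 5 summed to 215 and 206 CPM in Id2+/+ and to 261 and 196 CPM in Id2Δ/Δ replicates 1 and 2, with Mrc1 at 0 reads in both Id2Δ/Δ libraries. The 4 B-cell genes of a list of 6 summed to 40.4 and 42.4 CPM in Id2+/+ and to 57.3 and 40.3 CPM in Id2Δ/Δ. The 8 neutrophil genes summed to 276 and 170 CPM in Id2+/+ and to 258 and 140 CPM in Id2Δ/Δ, and the 7 erythroid genes of a list of 8 to 1983 and 1882 and to 1858 and 1738 CPM, with both alpha-globin genes, Hba-a1 and Hba-a2, at 0 in Id2Δ/Δ replicate 1. The 6 megakaryocyte genes summed to 454 and 510 and to 513 and 598 CPM, and Lck, the 1 listed T-cell gene of 5, lay between 21.2 and 23.5 CPM. The part of length and of other cells in the ribosomal protein values was not tested beyond these figures.

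The size of the difference varied with the level of the gene, taken as its mean log2 CPM over the 4 libraries. The 13 protein-coding members at or above 10 log2 CPM had a median difference of 0.04 and no pair of genotypes that did not overlap, and all 13 were below the Id2+/+ mean in Id2Δ/Δ replicate 2. The median was 0.12 over the 17 members at 9 to 10, 0.20 over the 37 members at 8 to 9 and 0.23 over the 15 members under 8. Across the 77 protein-coding members at or above 7, Pearson's r between level and difference was -0.77 and Spearman's rho was -0.73. Taken library by library, r was -0.62 for both Id2Δ/Δ libraries against the Id2+/+ mean and -0.49 for Id2+/+ replicate 2 against replicate 1, so the slope was also present between the controls. These are correlations across genes of the same 4 libraries and carry no p. Quantile normalization sets the value at each rank, and members hold 25 of the 100 highest ranks by mean level, which bounds how far such genes can shift together.

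**Figure D2:**
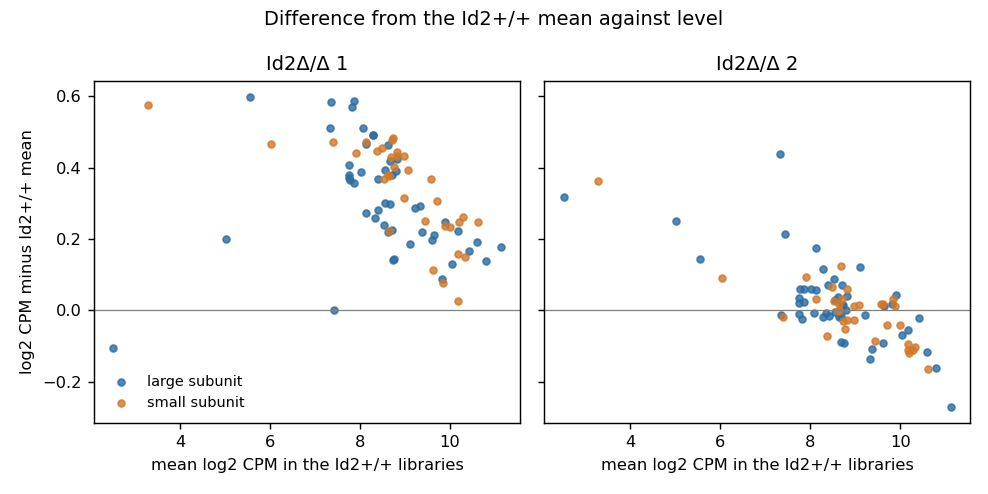
Each point is a tested protein-coding ribosomal protein gene, with its mean log2 CPM in the Id2+/+ libraries on the x axis and its log2 CPM in Id2Δ/Δ replicate 1 (left) or 2 (right) minus that mean on the y axis, colored by subunit. For the 77 genes with a mean of at least 7 log2 CPM over the 4 libraries, r between that mean and the plotted difference is -0.62 in each panel. The median over all 82 plotted genes is 0.34 on the left and 0.01 on the right.

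Rpl22l1 had the smallest p-value of the group. It encodes a paralog of RPL22, a large-subunit protein needed for lymphocyte development, and lies on chromosome 3 from 28805436 to 28807424 (GRCm38, plus strand). Its log2 CPM was 7.16 and 7.51 in Id2+/+ and 7.85 and 7.77 in Id2Δ/Δ replicates 1 and 2. Both Id2Δ/Δ libraries were thus above both Id2+/+ libraries, which also stood apart from each other. The difference was 0.48 ± 0.14 (SE, n = 2 libraries per genotype), with an unadjusted p of 0.0119 and an adjusted p of 0.910 in limma. It was 0.44 without Id2Δ/Δ replicate 1 and 0.38 after the length correction. Without Id2+/+ replicate 1, the lowest library, it was 0.30, with an unadjusted p of 0.15 in limma.

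Among the next members by p-value were Rpl10a, Rpl31 and Rps15. Rpl10a, a large-subunit protein, had 8.10 and 8.17 in Id2+/+ and 8.41 and 8.31 in Id2Δ/Δ, a difference of 0.22 ± 0.11 (SE). The genotypes did not overlap, and Id2Δ/Δ replicate 1 was the higher library. Rpl31, which lies by the exit of the peptide tunnel, had 8.21 and 8.37 against 8.78 and 8.41, and Rps15, a small-subunit protein of late assembly, had 7.92 and 7.91 against 8.36 and 8.01. The Id2Δ/Δ replicate 2 value of Rpl31 exceeded the higher Id2+/+ value by less than the Id2+/+ libraries differed. All 3 had an adjusted p of 0.910 in limma.

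The 3 members that were lower by the mean are among the most abundant. Rpl3, which lies near the peptidyl transferase center, had 11.18 and 11.08 in Id2+/+ and 11.31 and 10.86 in Id2Δ/Δ, a difference of -0.05 ± 0.15 (SE). Rps18, a small-subunit protein, had 10.21 and 10.15 against 10.21 and 10.09, a difference of -0.03 ± 0.09 (SE). The Id2Δ/Δ libraries lay on either side of the Id2+/+ libraries for Rpl3, and the genotypes touched for Rps18. Without Id2Δ/Δ replicate 2 the differences turned to 0.18 for Rpl3 and 0.03 for Rps18. Rps14, Rps19 and Rps27, small-subunit genes of similar level per length, differed by 0.07, 0.02 and 0.08, each with 1 Id2Δ/Δ library above and the other below both Id2+/+ libraries.

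**Figure D3:**
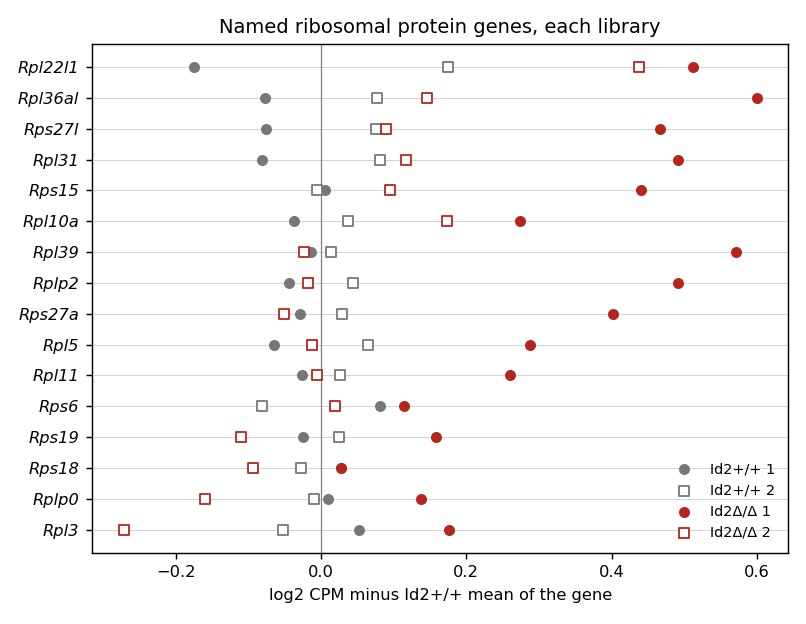
For 16 ribosomal protein genes (rows), the log2 CPM in each library minus the mean of the 2 Id2+/+ libraries is shown on the x axis, with gray for Id2+/+, red for Id2Δ/Δ, filled circles for replicate 1 and open squares for replicate 2. Id2Δ/Δ replicate 1 is the rightmost point in 15 rows and shares its place with Id2+/+ replicate 1 in the row of Rps18. Id2Δ/Δ replicate 2 lies to the right of both Id2+/+ points for Rpl22l1, Rpl10a and Rps15, among others. It lies to their left for Rpl3, Rplp0 and Rps19, among others.

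Paralogs were compared with their partners within each library, where a change of equal size in both partners cancels but one that varies with level does not. The level of Rpl22l1 minus that of Rpl22 was -0.69 and -0.38 log2 units in Id2+/+ and -0.38 and -0.16 in Id2Δ/Δ, a mean change of 0.27, although 1 library of each genotype had the same value to 2 decimals. Rpl22 itself had 7.85 and 7.89 against 8.23 and 7.93 log2 CPM. Rps27l, a target of p53, minus Rps27 was -3.52 and -3.30 in Id2+/+ and -3.20 and -3.24 in Id2Δ/Δ, a mean change of 0.20. Rpl36al minus Rpl36a was -2.52 and -2.53 in Id2+/+ and -2.44 and -2.37 in Id2Δ/Δ, a mean change of 0.12. In these 3 pairs both Id2Δ/Δ libraries were above both Id2+/+ libraries, for Rpl22l1 by a margin that rounding hides, and no test was made. This held for 19.0% of all tested genes taken singly, and no share over gene pairs was computed. In each of these 3 pairs the paralog had the lower log2 CPM, and differences within the group were larger at lower log2 CPM. Per kilobase of principal transcript, Rpl22l1 was instead above Rpl22, by 1.21 and 1.51 log2 units in Id2+/+ and 1.51 and 1.74 in Id2Δ/Δ. Rpl36al and Rps27l stayed below their partners on that scale.

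The other pairs overlapped or could not be read. Rpl7l1, which encodes a nucleolar relative of RPL7, minus Rpl7 was -2.51 and -2.42 in Id2+/+ and -2.71 and -2.30 in Id2Δ/Δ, and Rps4l minus Rps4x was -5.84 and -6.23 against -6.09 and -6.13. Rpl7l1 had 7.36 and 7.50 against 7.43 and 7.64 log2 CPM, so its higher library was Id2Δ/Δ replicate 2. Rpl3l is at too few reads for a ratio to Rpl3. Rpl10, a late-joining large-subunit protein, differed by 0.15 ± 0.13 (SE) and Rpl39, a small protein of the exit tunnel, by 0.27 ± 0.19 (SE), both with overlapping genotypes. Their paralogs Rpl10l and Rpl39l have no row in the deposited values.

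The ribosomal stalk recruits the GTPases of translation, and its genes differed in level. Rplp0, the base of the stalk, had 10.80 and 10.78 in Id2+/+ and 10.93 and 10.63 in Id2Δ/Δ, a difference of -0.01 ± 0.11 (SE). Rplp1 had 8.75 and 8.86 against 9.20 and 8.81, a difference of 0.20 ± 0.14 (SE), and Rplp2 had 8.24 and 8.32 against 8.77 and 8.26, a difference of 0.24 ± 0.17 (SE). In all 3 genes Id2Δ/Δ replicate 1 was highest and the genotypes overlapped.

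Several ribosomal proteins have roles outside the ribosome. RPL5, RPL11 and RPL23 bind MDM2 and so stabilize p53 when assembly fails, and their genes differed by 0.14 ± 0.13, 0.13 ± 0.12 and 0.08 ± 0.15 (SE). Rpl11 had 8.32 and 8.37 in Id2+/+ and 8.60 and 8.34 in Id2Δ/Δ, so its Id2Δ/Δ replicate 2 lay within the Id2+/+ pair, as for Rpl5, whereas that of Rpl23, at 9.20, was below 9.34 and 9.33. Rps6, whose protein is the substrate of S6 kinase, had 9.71 and 9.54 against 9.74 and 9.64, a difference of 0.07 ± 0.10 (SE). Rps27a, which is made as a fusion with ubiquitin, had 8.73 and 8.79 against 9.16 and 8.71, a difference of 0.18 ± 0.15 (SE). None of these 5 genes was called.

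The Diamond-Blackfan anaemia genes followed the group. All 19 of the listed genes were higher by the mean, with a median of 0.20 against 0.18 for all members and 0.01 for all tested genes, and both Id2Δ/Δ libraries lay above both Id2+/+ libraries in 9 of the 19, against 32 of 87 members and 19.0% of all tested genes. Without Id2Δ/Δ replicate 1, 12 of 19 were higher with a median of 0.03. Rps19, the most often mutated of these genes, had 10.14 and 10.19 in Id2+/+ and 10.33 and 10.06 in Id2Δ/Δ. Rps28 and Rps29, small-subunit genes of the list, had 8.80 and 8.85 against 9.26 and 8.88, and 8.71 and 8.71 against 9.19 and 8.75.

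Other genes of translation and ribosome production were read in the same fit, in which 0 genes were called. Among 15 other TOP mRNAs, most of which encode elongation and initiation factors, 12 were higher with a median of 0.14, and the medians against the Id2+/+ mean were 0.26 in Id2Δ/Δ replicate 1 and 0.02 in replicate 2. Pabpc1, the poly(A)-binding protein, had 9.50 and 9.51 in Id2+/+ and 9.86 and 9.61 in Id2Δ/Δ, while the elongation factor Eef2 had 11.43 and 11.31 against 11.27 in both Id2Δ/Δ libraries. Rack1 and Fau, which encode ribosome components whose names fall outside the rule, were higher by 0.19 and 0.17 with overlapping genotypes.

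Mitochondrial ribosomal protein genes, whose products translate the mitochondrial genome, were higher in 67 of 78, with medians of 0.23 in Id2Δ/Δ replicate 1 and 0.08 in replicate 2. The 27 ribosome assembly factors were higher in 21, with medians of 0.09 and 0.13, so the median of these genes was not lower in Id2Δ/Δ replicate 2. Gnl3, which encodes nucleostemin, had 6.87 and 6.88 in Id2+/+ and 7.25 and 7.19 in Id2Δ/Δ. RNA polymerase I and its factors, which make ribosomal RNA, were higher in 7 of 14 with a median of 0.04. Polr1a and Polr1b, its largest subunits, had 6.81 and 6.81 against 6.41 and 6.57, and 6.73 and 6.46 against 6.13 and 6.27. Regulators of TOP mRNA translation were higher in 3 of 10 with a median of -0.08, which the length correction brought to 1.7e-05. Larp1 had 8.20 in both Id2+/+ libraries and 7.81 and 8.16 in Id2Δ/Δ. The length correction left the RNA polymerase I median at 0.04. Some of these transcripts are long. Tested genes over 4 kb had a median deviation of -0.04 and -0.01 in Id2Δ/Δ replicates 1 and 2, against 0.04 in both Id2+/+ libraries.

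**Figure D4:**
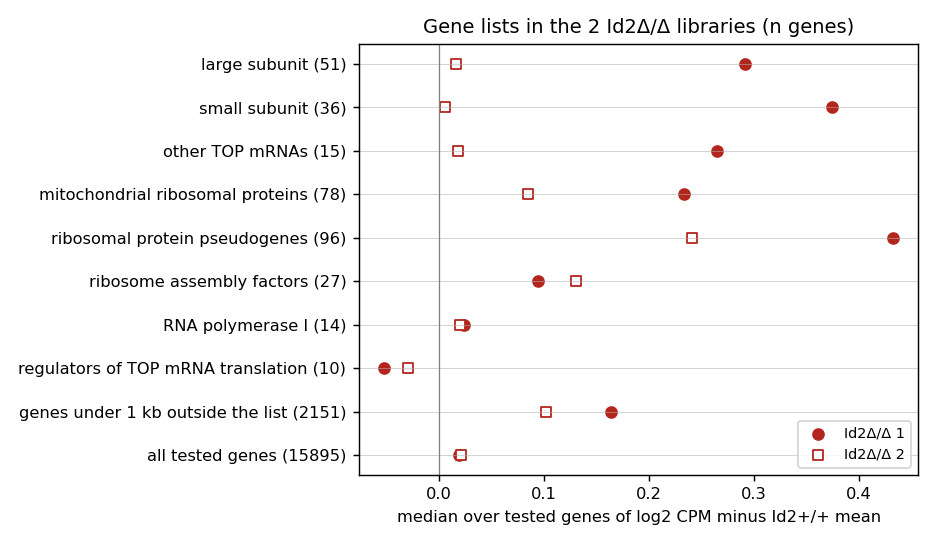
For each gene list (rows, number of tested genes in brackets), the median over its genes of log2 CPM minus the Id2+/+ mean is plotted on the x axis for Id2Δ/Δ replicate 1 (filled circle) and replicate 2 (open square). The symbols are far apart for the large and small subunits and other TOP mRNAs and lie together for RNA polymerase I and for all tested genes.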

How the data were processed

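RNA-Seq values of 4 libraries of sorted HSCs, 2 per genotype, were analysed. The authors deposited log2 CPM values for 19354 genes, normalized by quantiles. The submitters' processing notes name CASAVA 1.8.4, Trimmomatic 0.30, TopHat2 2.0.8, RSEM, STAR, mm9 and NCBIM37, without roles. Strand use is not given in the sources used here, and the accession in the paper differs from that of this record. Quantile normalization fixes the value at each rank and can compress a shared change of the most abundant genes.

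Reads were recovered below 5 log2 CPM, by counting up the distinct values of a library. The 15895 genes whose CPM averaged 1 or more were tested on the deposited scale with limma 3.58.1 in R 4.3.3 (moderated by eBayes with trend, genotype alone in the model, two-sided p, Benjamini-Hochberg adjustment, called under 0.05). The fit was tested on simulated data, where the list given a shared shift held only genes of middle level. Compression of a shared change in the most abundant genes was therefore not examined. Lists are described by counts and medians, with no test. The members and lists were chosen with earlier results of these data known. Named members are the 5 in each direction with the smallest p (3 on the lower side), the 5 most and 5 least abundant per length, paralog pairs, the stalk, MDM2-binding proteins, Rps6, Rps27a and the Diamond-Blackfan anaemia genes, of which some items are not reported here. GENCODE M21 (GRCm38) gave transcript lengths, gene types and gene coordinates for the 99.7% of identifiers that matched, 82.0% with the same version, and start sequences are from RefSeq on GRCm38.p6. The length correction took off a natural spline with 5 degrees of freedom. Alternatives varied the pseudocount, filter, trend, scaling, length and GC content, replicate block and libraries. The use of each replicate number alone, of protein-coding members alone and of coding length was added after seeing the data.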

Additional observations from a re-analysis of the deposited data

How the results depend on the processing

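With 2 libraries per genotype and no test past its threshold, these values describe the libraries more than the genotypes. No ribosomal protein gene was called by limma at an adjusted p under 0.05 in any alternative, and 1 was called at an unadjusted p under 0.05. The replicate numbers are not shown to pair the libraries, since same-numbered deviations correlated with r of 0.06 over all tested genes and -0.08 over members. With the replicate number as a block, 1 of all tested genes was called and no member.

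The number of members higher in Id2Δ/Δ HSCs ranged from 47 (without Id2Δ/Δ replicate 1) to 86 when a library was left out, and the median from 0.01 to 0.31. Using replicate 1 of each genotype alone gave a median of 0.34, and using replicate 2 alone gave 0.0059 with 45 members higher. Correcting for length, the same with the block, and correcting for length and GC content turned 4 named genes, in that order, to -0.019, -0.019 and -0.038 for Rps27, to -0.0087, -0.0087 and -0.033 for Rps14, to -0.060, -0.060 and -0.086 for Rps19, and to -0.010, -0.010 and -0.015 for Rps6. The cause was not tested. The other pseudocount, filters, scalings and the fit without the trend turned none of the 31 members described next.

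Leaving out a library changed the direction of 17 of 31 members, which are the tested ones named for p-value, level or role, without the Diamond-Blackfan anaemia genes that were taken as a group. The ranges were -0.094 to 0.027 for Rps18, -0.27 to 0.18 for Rpl3, -0.16 to 0.14 for Rplp0, -0.085 to 0.25 for Rps27, -0.11 to 0.26 for Rps14, -0.11 to 0.16 for Rps19, -0.11 to 0.32 for Rpl24, -0.080 to 0.31 for Rps4l, -0.0039 to 0.30 for Rpl10, -0.0071 to 0.51 for Rpl36a, -0.023 to 0.57 for Rpl39, -0.017 to 0.49 for Rplp2, -0.013 to 0.29 for Rpl5, -0.0061 to 0.26 for Rpl11, -0.14 to 0.29 for Rpl23, -0.015 to 0.15 for Rps6 and -0.051 to 0.40 for Rps27a. Rpl22l1 ranged from 0.30 to 0.65.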

Other observations

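Rows of processed ribosomal protein pseudogenes, which are intronless copies of the mRNAs, were also read. Of 143 such rows 96 were tested and 86 of them were higher in Id2Δ/Δ HSCs, against 51.7% of all tested genes, with a median of 0.34. Rows near the limit of a mean of 1 CPM can pass it through high Id2Δ/Δ values, which can raise these figures. Their median difference from the Id2+/+ mean was 0.43 in Id2Δ/Δ replicate 1 and 0.24 in Id2Δ/Δ replicate 2. In replicate 2 the median over the 87 tested members was 0.01, and the parent genes were not compared separately. The 5 members annotated as pseudogenes had medians of 0.29 and 0.20 in the same libraries. Since reads of these rows may come from the parent mRNAs, their levels are uncertain.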
